A study of Mus musculus with 4 samples.

Results

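The 10 SCL peaks at the apelin receptor gene Aplnr are described here, out of 12885 peaks in the merged call. They were selected on the position of the peak summit, the base with the most stacked ChIP fragments. A peak was a member if the nearest protein-coding transcription start site (TSS) was one of Aplnr or of Apln, the gene of the ligand apelin, or if it lay in the 10-peak chain at chr2:84969474-85008907 (mm9). Aplnr was the nearest protein-coding gene for 9 peaks and Apln for 0. The chain added 1 peak, whose nearest protein-coding TSS was that of Lrrc55. Positions in the list therefore chose the members, and their number and spacing are given as a description. The study's text counts fewer bound loci than the deposited list. It names a filter after peak calling without its criteria, so ranks and shares refer to the deposited list.

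SCL (gene symbol Tal1), a basic helix-loop-helix transcription factor needed for blood specification, was mapped by chromatin immunoprecipitation and sequencing (ChIP-seq) in mesoderm expressing the VEGF receptor FLK1. These FLK1+ cells were taken at day 3.5 from embryoid bodies, the aggregates formed by differentiating mouse embryonic stem (ES) cells, here wild-type cells of the strain given as C57Bl/6 X Sv129 and named J1 in the study. There were 2 libraries made with an in-house SCL rabbit anti-serum and 2 input libraries made with no antibody, from 2 independent differentiations. The peak list merges the libraries of each kind, so no value has a replicate error, and it holds neither library depths nor expression, which were not analysed here.

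APLNR is a G protein-coupled receptor of the cell surface. It answers to the secreted peptides apelin and APELA (also called ELABELA or Toddler), and signals through inhibitory G proteins and β-arrestins. The receptor is known in mesoderm, where it marks early cells leaving the primitive streak, and in the formation of the heart and the blood vessels. SCL binds DNA in a complex with E proteins, LMO2, LDB1 and GATA factors, which recognise E-boxes and GATA sites.

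Sequences around 5 of the summits are shown first, because the peaks differ in which motifs lie under their deepest point. All are from the + strand of chromosome 2 in NCBIM37, the build also called mm9, read 5′ to 3′. Capitals mark GATA sites (AGATAA or AGATAG, and TGATAA or TGATAG), E-boxes (CANNTG) and composite motifs (CTG placed 7 to 9 bp before GATA on the same strand), on either strand. Of a composite motif only the CTG and the GATA are in capitals, and on the - strand they read CAG and TATC. Peak 6, the strongest, is chr2:84980976-84981275, where 4 E-boxes lie within 50 bp of the summit and the GATA sites lie farther out. Peak 2, the second strongest, is chr2:84971499-84971798.
Peak 6: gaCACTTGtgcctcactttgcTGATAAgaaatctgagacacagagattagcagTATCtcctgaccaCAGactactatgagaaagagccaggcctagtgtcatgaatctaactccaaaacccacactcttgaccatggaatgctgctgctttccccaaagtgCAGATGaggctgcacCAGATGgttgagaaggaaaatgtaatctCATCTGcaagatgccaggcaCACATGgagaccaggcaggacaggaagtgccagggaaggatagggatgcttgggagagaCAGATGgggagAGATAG
Peak 2: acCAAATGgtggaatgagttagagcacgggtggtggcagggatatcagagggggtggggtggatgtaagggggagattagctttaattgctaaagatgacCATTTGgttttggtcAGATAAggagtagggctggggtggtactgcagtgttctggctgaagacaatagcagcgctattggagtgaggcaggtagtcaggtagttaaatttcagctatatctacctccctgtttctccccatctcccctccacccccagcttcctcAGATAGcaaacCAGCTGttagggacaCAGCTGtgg
Peak 7 is chr2:84987967-84988067 and has a pair of composite motifs. Peak 8 is chr2:84990716-84990816 and has a pair of GATA sites with no E-box. Peak 9 is chr2:85000889-85000989, where a GATA site and an E-box share bases.
Peak 7: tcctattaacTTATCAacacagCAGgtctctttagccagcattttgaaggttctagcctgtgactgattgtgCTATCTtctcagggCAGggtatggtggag
Peak 8: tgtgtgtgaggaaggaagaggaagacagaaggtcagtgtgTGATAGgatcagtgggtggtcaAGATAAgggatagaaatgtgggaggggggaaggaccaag
Peak 9: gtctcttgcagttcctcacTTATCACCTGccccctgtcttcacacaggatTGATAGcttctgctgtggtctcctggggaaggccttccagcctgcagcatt
The composite motifs of peak 2 lie outside the stretch above, at chr2:84971194-84971207 and chr2:84971398-84971413, and are shown with 10 bases on each side.
Peak 2, first composite motif: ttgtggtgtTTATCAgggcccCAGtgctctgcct
Peak 2, second composite motif: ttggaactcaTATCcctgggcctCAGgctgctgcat

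Aplnr is a gene of 1 exon at chr2:84976517-84980079 on the + strand, 3563 bp long. Its chain of peaks covered 39.4 kb, with neighbouring summits 1284 to 10173 bp apart. A chain is a run of peaks whose neighbouring summits lie within the stitching distance commonly used to define super-enhancers. Of the 10 summits, 4 lay upstream of the TSS and 6 downstream, 5 of them beyond the end of the gene. There were 8 summits within 15 kb of the TSS and 0 within 1 kb. The peaks thus surrounded the gene, and the start itself carried none.

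For each peak the list gives a fold enrichment, which divides the ChIP fragments stacked at the summit by the local background after 1 is added to each. The number of these fragments (the pileup) and the background were recovered from the fold and its p-value. Intervals are 95% Poisson intervals of the pileup and cover its counting error only. Those of the fold hold the background fixed, so its error is left out and they are too narrow. The strongest peak, peak 6 (chr2:84980845-84981477), had its summit 4661 bp downstream of the TSS, 1099 bp beyond the end of Aplnr and in no annotated gene. Its pileup was 1660 fragments (1581 to 1742) over a background of 9.96, a fold of 151.6 (144.4 to 159.1). It ranked 66 of 12885 by fold, 20 by pileup and 14 by −log10 p. Peak 6 is thus among the strongest 0.512% of the list by fold. It held 59.9% of the summed pileup of the chain, 2769 fragments counted at the summits only.

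Both of the next strongest peaks lay upstream of the gene, between genes. Peak 2 (chr2:84971105-84972295), 4.95 kb before the TSS, had a pileup of 476 fragments (434.2 to 520.7) over a background of 6.81. Its fold was 61.1 (55.7 to 66.8), at rank 646, and its width of 1191 bp ranked 91 in the list. Peak 3 (chr2:84972733-84973230), 3.45 kb before the TSS, had a pileup of 261 (230.3 to 294.7) and a fold of 27.9 (24.6 to 31.5). The intervals of peaks 6, 2 and 3 overlapped neither each other nor those of the 7 other peaks, by pileup or, with the background held fixed, by fold. The 3 deepest peaks together held 86.6% of the summed pileup, and peak 6 was 2.48-fold stronger than peak 2 and 32.9-fold stronger than the weakest peak of the chain.

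**Figure D1:**
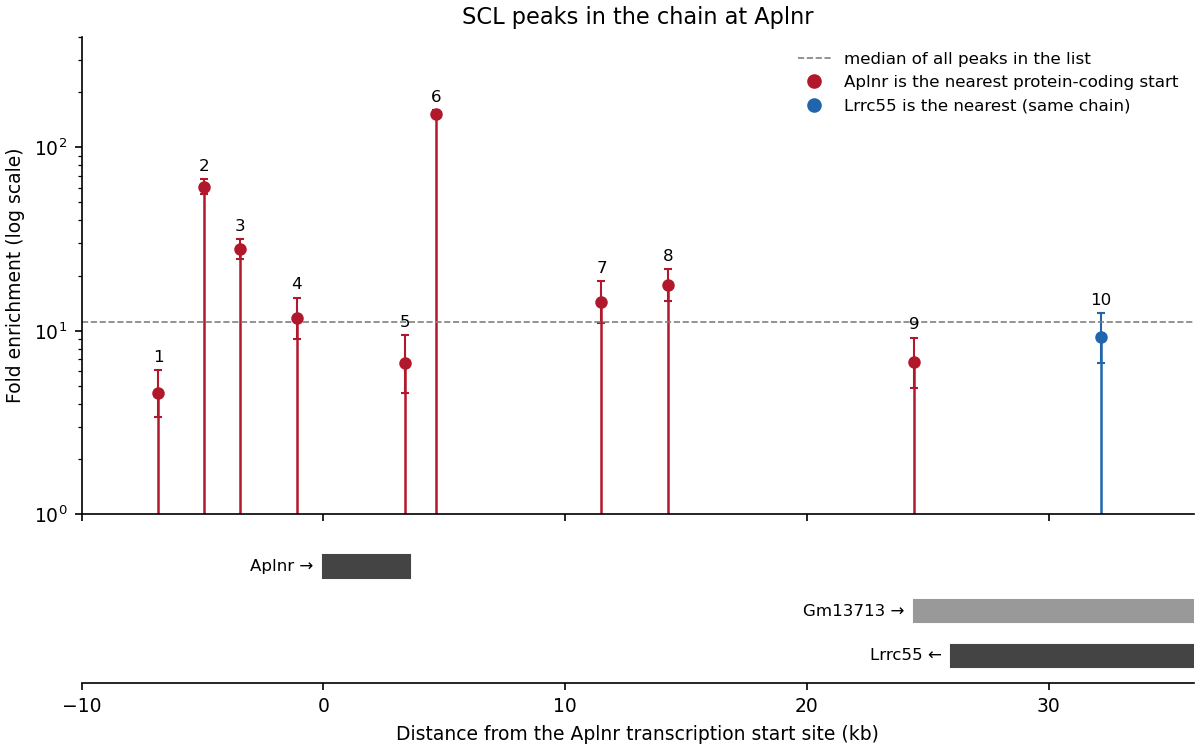
Fold enrichment (log axis) of the 10 peaks against the distance of the summit from the Aplnr TSS in kb, with 95% counting intervals and the annotated genes below. The strongest peak (151.6-fold) lies 4.66 kb after the TSS, just past the end of Aplnr, and the next (61.1-fold) 4.95 kb before it.

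The remaining upstream peaks were weaker and stood at opposite ends of the upstream stretch. Peak 4 (chr2:84975146-84975536) was the summit closest to the TSS, at 1110 bp, with a pileup of 59 (44.9 to 76.1) and a fold of 11.8 (9.01 to 15.1). Peak 1 (chr2:84969474-84970037) was the farthest upstream, at 6.83 kb, with a pileup of 47 (34.5 to 62.5). Its background of 9.43 was second only to that of peak 6 in the chain, and its fold of 4.60 (3.41 to 6.09) was the lowest, at rank 12765 of 12885, while by pileup it ranked 7292. The place of peak 1 at the bottom of the order thus holds for the fold and not for the number of fragments.

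Peak 5 (chr2:84979692-84980092) was the only member with its summit inside Aplnr, in the untranslated part of the exon, 3.38 kb after the TSS. It had the smallest pileup of the chain, 30 fragments (20.2 to 42.8), and a fold of 6.70 (4.59 to 9.48). Peak 6, next to it, had its summit 1284 bp away, so the weakest peak by pileup and the strongest were neighbours.

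Peaks 7 and 8 lay between Aplnr and the next gene. Peak 7 (chr2:84987895-84988145), 11.5 kb after the TSS, had a pileup of 56 (42.3 to 72.7), and with a background of 2.95, the lowest in the chain, a fold of 14.4 (11.0 to 18.7). Peak 8 (chr2:84990557-84991063), 14.25 kb after the TSS, had a pileup of 101 (82.3 to 122.7) and a fold of 17.8 (14.6 to 21.6). Their intervals of fold overlapped, those of pileup did not, and peak 8 was the deepest of the 7 weaker peaks.

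The peaks at the far end of the chain lay near other genes as well. With noncoding genes counted, 7 peaks had Aplnr as the nearest TSS, since peaks 8 and 9 went to Gm13713. Peak 9 (chr2:85000845-85001040) had a pileup of 39 (27.7 to 53.3) and a fold of 6.76 (4.86 to 9.18). Its summit lay 4 bp from the start of this antisense noncoding transcript and 24422 bp from the Aplnr TSS, against 35917 bp to that of Lrrc55. Peak 10 (chr2:85008367-85008907) lay in an intron of Lrrc55, which encodes an auxiliary subunit of potassium channels, with a pileup of 40 (28.6 to 54.5) and a fold of 9.22 (6.65 to 12.47). It was nearer to the TSS of Lrrc55 (28186 bp) than to that of Aplnr (32153 bp), and so belongs to the chain but not to Aplnr by nearest gene. Peaks 9 and 10 are thus the member just inside and the one just outside the nearest-TSS boundary. The nearest gene does not show which gene a peak acts on.

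By fold the order of the peaks was 6, 2, 3, 8, 7, 4, 10, 9, 5 and 1. Below peak 3, neighbours in that order had overlapping intervals. The median fold of the 10 members was 13.1, beside 11.1 over all 12885 peaks, and their median pileup 57.5 beside 53. A fold of at least 10 was reached by 6 of 10, against 56.6% of all peaks. The members as a group thus sat near the middle of the list, with peaks 6 and 2 far above it. Their median background was 4.82 fragments, beside 3.67 over the list, with 7 of 10 above that value, and their median width 502.5 bp beside 397. The highest backgrounds lay under peaks 6, 1, 3 and 2, and their part in the calls was not tested.

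**Figure D2:**
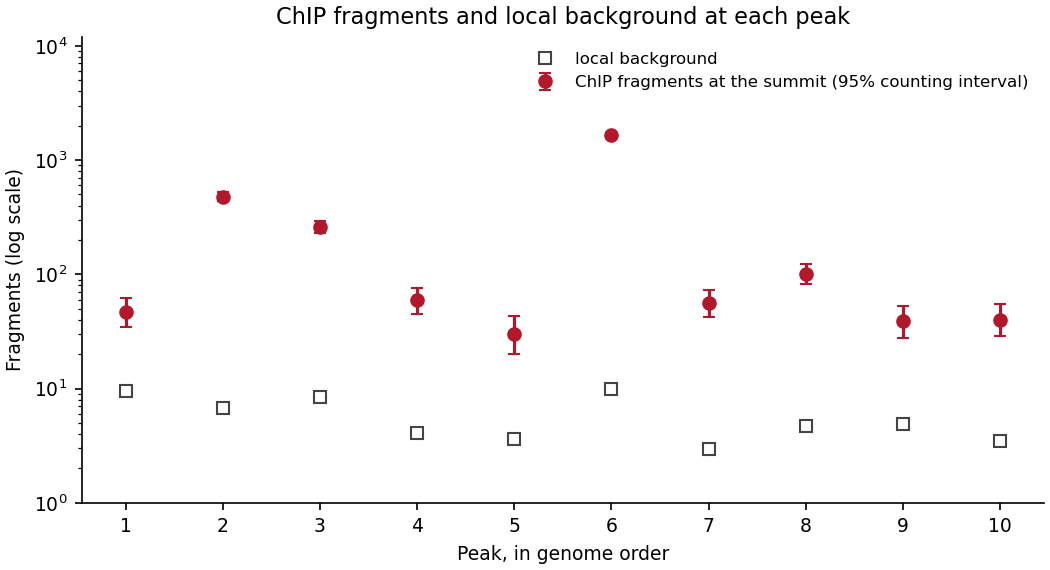
ChIP fragments at the summit (filled circles, bars are 95% Poisson intervals) and local background (open squares) of each peak in genome order, both on a log axis. Pileups run from 30 to 1660 fragments while backgrounds stay between 2.95 and 9.96.

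**Figure D3:**
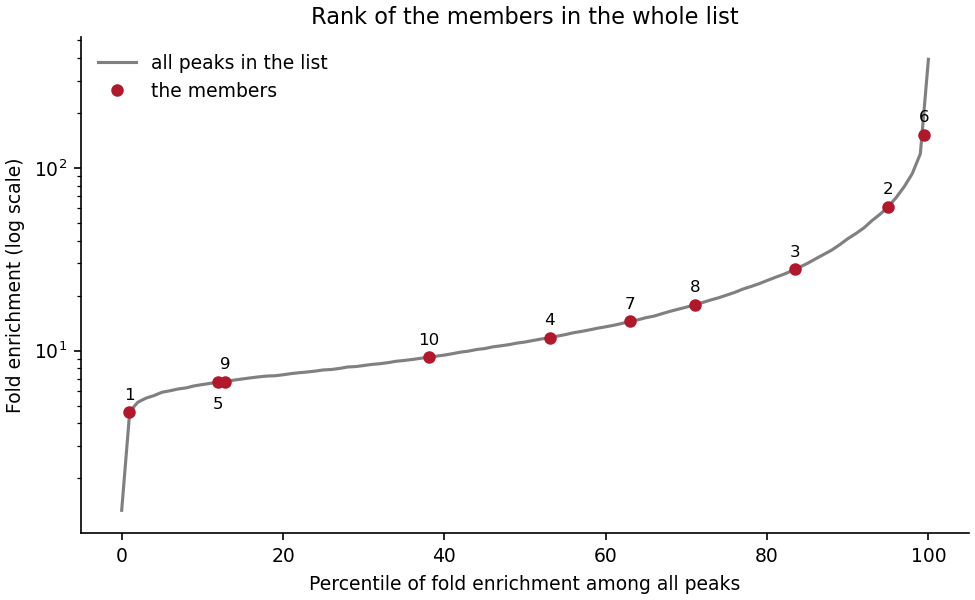
Fold enrichment (log axis) against its percentile among all 12885 peaks, the line showing the whole list and the circles the 10 members by number. The members spread over the list from rank 12765 (peak 1) to rank 66 (peak 6).

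The last peak before the chain lay 190.7 kb away (chr2:84778323-84779180, fold 43.9) and was assigned to the transporter gene Slc43a3. The first after it lay 69.8 kb away (chr2:85078297-85078732, fold 16.5) and was assigned to Lrrc55. The peak names carry the numbers of a longer call in genome order, up to 315418, of which 4.09% were kept in the list. Of the 18 numbers from the first to the last peak of the chain, 10 were kept, or 55.6%. As the chain was selected for its density, this share is a description.

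Of 22380 protein-coding genes, 28.9% had at least 1 peak by nearest TSS, with a median of 1 peak among those 6469 genes. With 9 peaks Aplnr was among 73 genes with that number or more, or 1.13% of the genes with a peak, and 55 genes had more. Its territory, bounded by the midpoints to the neighbouring protein-coding TSSs, spanned only 69.3 kb. This gave 13.0 peaks per 100 kb, rank 7 of the 471 genes with 5 or more peaks, whose median was 1.80. By the summed pileup of its 9 peaks, 2729 fragments, Aplnr ranked 19 of all genes, and by its strongest peak 64.

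The list held 10268 chains and single peaks, of which 25 had at least 6 peaks. The chain at Aplnr had 10, but 6 at a stitching distance of 5 kb or with a fold of at least 10 required. With −log10 q of at least 50 it had 4, and no rank among chains is given for these settings. At the reported setting only 2 chains had more peaks than that of Aplnr. One, at Gm10718 on chromosome 9, had 23 peaks with a median fold of 1.96 over a median background of 308.6 fragments. The other, at Gse1 on chromosome 8, had 12 peaks over 43.3 kb, with a strongest fold of 106.6 and a median of 7.15. Among the 7 chains of at least 9 peaks, the closest to that of Aplnr in length was at Cbfa2t3, the gene of the SCL co-repressor ETO2, with 9 peaks over 39.4 kb. Its strongest fold was 236.6 and its median 11.7, and the strongest peak held 59.1% of the summed pileup, beside 59.9% at Aplnr. The chain at Gadd45g, with 9 peaks over 20.3 kb, was more even, its strongest peak (fold 43.4) holding 21.2%. In both the Aplnr and the Cbfa2t3 chain most of the summed pileup, counted at the summits only, thus came from a single peak.

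Motifs were counted within 50 bp on each side of the summit, on both strands. GATA sites were found in 5 of 10 members (Wilson 95% interval 23.7 to 76.3%), against 73.2% of all peaks and 17.8% of windows 1 kb to either side of all peaks. E-boxes were found in 5 of 10, against 52.6% of all peaks and 42.4% of the flanking windows. The composite motif, which holds the letters GATA but not always a whole GATA site, was found in 1 of 10 (1.79 to 40.4%), against 32.9% and 3.07%. The ETS core AGGAA was found in 6 of 10, against 51.9% and 33.1%, and the KLF/SP1 motif CCAACC in 1 of 10, peak 3, against 4.23% and 4.70%. All 5 shares of the list lay within the wide intervals of the members' shares, and members of a single chain are not independent of each other. Of the 20 flanking windows of the members themselves, 6 held a GATA site, 6 an E-box and 9 an ETS core. The composite and the KLF/SP1 motif were found in 0 of them. A match says only that these letters are present.

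The 5 members with a GATA site in the window were peaks 3, 4, 7, 8 and 9, and did not include the 2 strongest. In peak 6 the nearest GATA site lay 92 bp from the summit, and in peak 2 it lay 50 bp away, with only its first base inside the window. In the whole peak, 9 of 10 members held a GATA site, beside 89.4% of all peaks, and peak 1 held none. Peak 3 had the E-box CATCTG over its summit, a GATA site 37 bp away and 2 KLF/SP1 motifs. Peak 4 had a GATA site 33 bp to the left of its summit and the E-boxes CAGATG and CATCTG to the right. Peaks 1, 5 and 10, of folds 4.60, 6.70 and 9.22, had neither a GATA site nor an E-box in the window.

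Peak 6 had 4 E-boxes in its window, as the sequence above shows. They were CAGATG at −41 and at −26 bp from the summit, CATCTG at 2 bp, which is CAGATG on the other strand, and CACATG at 22 bp. Over the whole peak there were 6 E-boxes, 3 GATA sites and a composite motif with 9 bp between CTG and GATA, at −149 to −134 bp. Among the 215 peaks of the list with a fold of at least 100, 24 had no GATA site in the window and 3 had 4 or more E-boxes, and peak 6 was the 1 with both. Among all 12885 peaks, 65 had 4 or more E-boxes, and 16 of these had no GATA site. This combination was singled out after the sequence of peak 6 had been seen.

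Peak 2 had 1 E-box in its window, CATTTG, followed by the GATA site AGATAA. Its composite motifs lay at −370 and −166 bp, with 7 and 9 bp between CTG and GATA. Farther to the right, AGATAG at 200 bp was followed by CAGCTG at 211 bp and again at 226 bp. Over its 1191 bp, peak 2 held 4 GATA sites and 7 E-boxes, the most of any member for both.

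Peak 7 was the only member with the composite motif in the window, and had 2 of them, with 7 and 9 bp between CTG and GATA. Of all peaks, 266 (2.06%) had 2 or more in the window. Peak 8 had GATA sites at −10 and 12 bp and no E-box in the window, with 3 ETS cores beside them. Peak 9, the weakest of the 5 peaks shown here (fold 6.76), had TTATCACCTG at −31 bp, in which the GATA site and the E-box CACCTG overlap, and a further GATA site starting at the summit base. A GATA site or an E-box lay in the window of 87.9% of all peaks, 91.2% of those with a fold of at least 10 and 83.6% of those under it. Among the members it did so in 6 of 6 with a fold of at least 10 and in 1 of 4 under it, a description of 10 peaks with no test. Over the whole list, a GATA site alone lay in the window of 65.3% of the 5593 peaks with a fold under 10, of 79.1% of those with at least 10 and of 88.8% of those with at least 100. Peaks 6 and 2, the strongest of the chain, lacked a whole GATA site in this window. Within 100 bp of the summit both had one, as did 8 of 10 members, 84.6% of all peaks and 97.7% of those with a fold of at least 100.

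**Figure D4:**
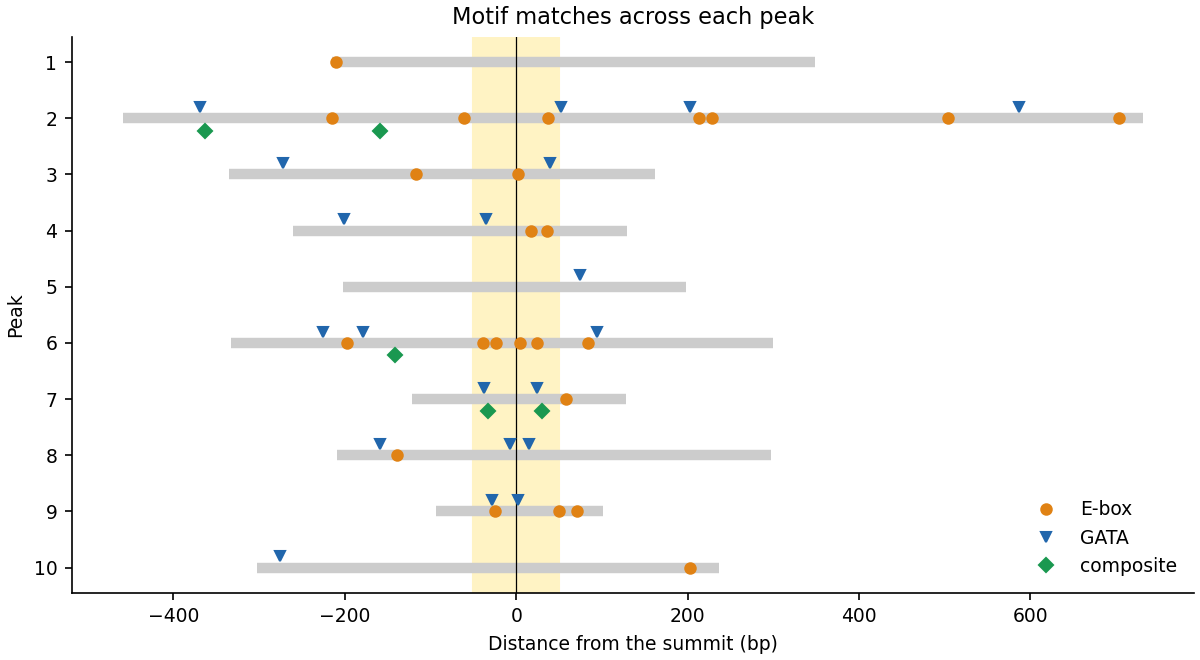
Positions of E-boxes (circles), GATA sites (triangles) and composite motifs (diamonds) relative to the summit in bp for each of the 10 peaks, where the grey bar is the extent of the peak and the shaded band the 50 bp on each side of the summit. Peak 6 has 4 E-boxes and no GATA site in the band, and peak 7 has 2 composite motifs there.

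Apln, at chrX:45378323-45388030 on the - strand with its TSS at the higher coordinate, had no peak. The list holds only peaks above the authors' threshold, so binding below it was not seen. There was no summit within 100 kb of the TSS. The nearest lay 103.9 kb away (chrX:45491563-45492254, pileup 62, fold 17.4), and its nearest protein-coding gene was Sash3, which encodes a lymphocyte adaptor protein. The next, 118.8 kb away in an intron of Sash3 (chrX:45506326-45507135), was strong, with a pileup of 466 over the lowest background of the list, 2.43, and a fold of 136.0 (124.0 to 148.9), rank 96. On the other side of Apln the last peak lay 1.12 Mb away. The peak-free interval around Apln was 1.23 Mb, and 37 of the 282 intervals between neighbouring summits on the X chromosome were at least as long. The X chromosome had 0.170 peaks per 100 kb, beside 0.485 over the genome and 0.558 on chromosome 2, and the part of this low density in the absence of Apln peaks was not tested. The receptor gene thus had 9 peaks and the ligand gene 0.

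The other ligand gene, Apela, was annotated as the noncoding Gm10664. With its own TSSs added to the protein-coding ones it was the nearest gene of no peak, and the nearest summit lay 38.6 kb away. Of the 25 genes of the apelin pathway besides Aplnr, with Apln and Apela among them, 11 had a peak and 14 did not. This is a share of 44% beside 28.9% of all protein-coding genes. None had as many peaks as Aplnr or as strong a peak by nearest TSS. The numbers at single genes depend on this assignment: inside the gene or up to 10 kb from it Aplnr had 7 peaks, and within 50 kb of a TSS 10. Among peptide processing and degradation genes, Furin, which encodes a proprotein convertase that can cleave proapelin, had 2 peaks with a strongest fold of 12.0. Mme, which encodes the peptidase neprilysin, had none.

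Of 7 genes for signal transducers, 3 had a peak. Gnaq, encoding a G protein α subunit, had 3 with a strongest fold of 90.1 (82.5 to 98.2), the highest in the pathway after Aplnr. Arrb1, encoding β-arrestin 1, had 2, the stronger with a fold of 69.2 (63.1 to 75.7) and the nearest summit 59 bp from a TSS. Gna13 had 2 with a strongest fold of 21.8. The genes of the inhibitory G protein subunits, Gnai1, Gnai2 and Gnai3, were the nearest gene of no peak, nor was Arrb2. Within 50 kb of a TSS, however, Gnai2 had 3 summits and Gnai3 had 2, of which 1 was within 10 kb of Gnai3.

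Of 11 downstream genes, 6 had a peak. Nos3, the endothelial nitric oxide synthase gene, had 1 with a fold of 61.1 (54.2 to 68.6), 921 bp from a TSS. Mef2c, encoding a transcription factor of heart and vessel development, had 6, the most after Aplnr, with a strongest fold of only 12.4. Klf4 had 4 with a strongest fold of 29.5, the nearest 58.6 kb from its TSS, Mef2a 2 (12.9), Hdac4 2 (7.90) and Mapk3 1 (6.96). Akt1, Hdac5, Mef2d and Klf2 were among those with none by nearest TSS, though within 50 kb of a TSS Akt1 had 3 summits and Klf2 2. Of the genes of the related angiotensin receptor, Agtr1b had 2 peaks, the nearer one 220.3 kb from its TSS, and Agtr1a had none.

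The same values at 21 genes of endothelial receptors and junction proteins show where Aplnr stood among genes of the lineage. A peak was found at 20 of 21, beside 28.9% of all protein-coding genes, with a median of 2 peaks and a median strongest fold of 21.1. Kdr, which encodes the FLK1 on which the cells were sorted, had 10 peaks and a strongest fold of 182.8 (171.9 to 194.2), above that of Aplnr. Cdh5, the VE-cadherin gene, had 10 with a strongest fold of 21.7 (19.1 to 24.7). Flt1, the gene of another VEGF receptor, had 6, and its strongest fold of 137.3 (126.9 to 148.4) overlapped that of Aplnr in the counting error of the pileup. Acvrl1, the gene of a BMP receptor of endothelium, had 4 with a strongest fold of 90.1, and Tek, the angiopoietin receptor gene, had 5 (42.6). The strongest folds at Flt4, Eng, Pecam1, Esam, Cldn5, Nrp1, Emcn and Cd34 lay between 6.07 (Nrp1) and 26.6 (Flt4).

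Among the 7 genes for other G protein-coupled receptors in this list, all had a peak and none had as many as Aplnr. S1pr1, a sphingosine 1-phosphate receptor gene, came closest in strength with a fold of 100.3 (90.2 to 111.2) and had 5 peaks. Ednrb had 2 with a strongest fold of 59.3, Ackr3 6 (33.8) and Cxcr4 5 (20.4). Calcrl, F2r and Lpar6 each had 1, with folds of 5.08, 8.56 and 6.64. Tie1 was the only gene of the 21 without a peak by nearest TSS, while within 50 kb of its TSS there were 2 summits. By nearest TSS Aplnr thus had fewer peaks than Kdr and Cdh5, and by the fold of its strongest peak stood below Kdr only. By the pileup of that peak Aplnr stood above Kdr, with 1660 fragments against 1044. The order by number turned round under the other assignments. Inside the gene or up to 10 kb from it there were 7 peaks at Aplnr, 2 at Kdr and 5 at Cdh5, and within 50 kb of a TSS 10, 6 and 5.

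**Figure D5:**
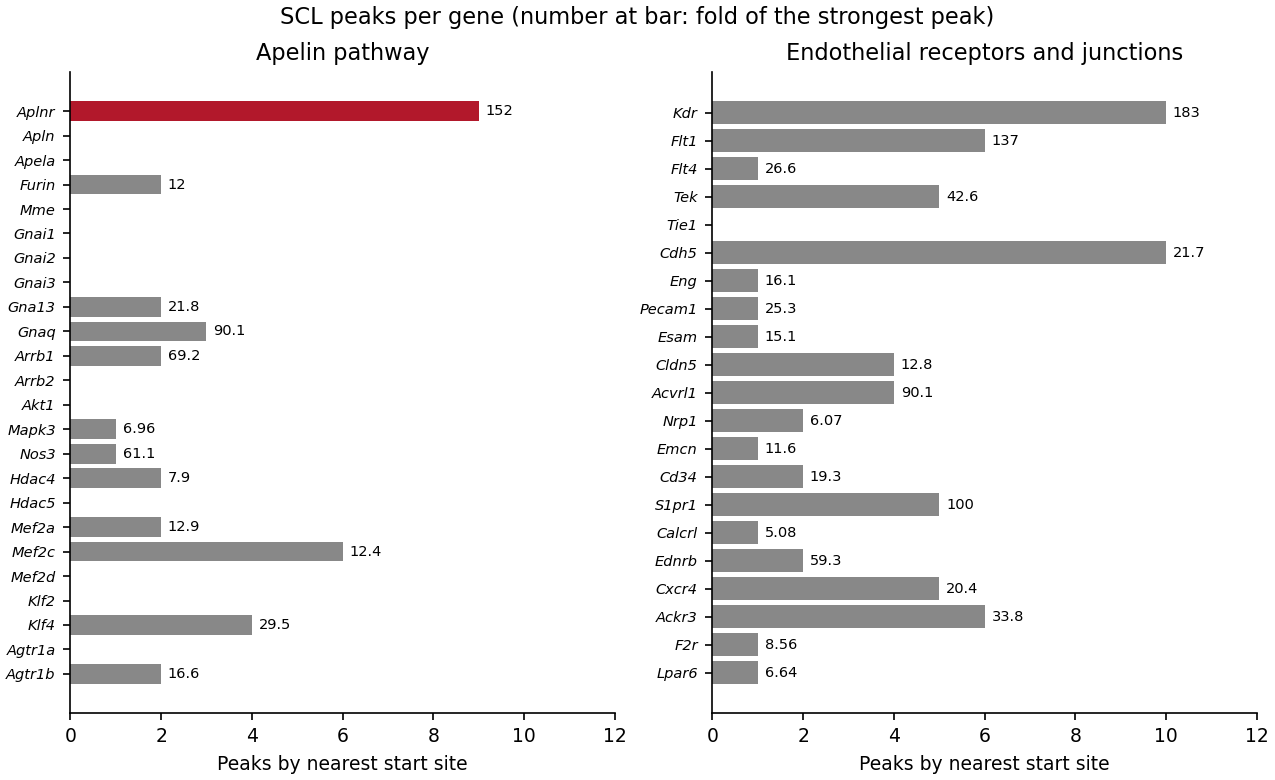
Number of SCL peaks by nearest TSS for the named genes of the apelin pathway (left, Aplnr in red) and for endothelial receptors and junction proteins (right), with the fold of the strongest peak at each bar. Aplnr has 9 peaks and Apln and Apela have 0, while Kdr and Cdh5 have 10 each, and within 50 kb of a TSS the order turns round, with 10 at Aplnr, 6 at Kdr and 5 at Cdh5.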

How the data were processed

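SCL ChIP and input libraries, 2 of each, were grouped by the sample labels. Paired-end reads were aligned by the authors to mm9 with Bowtie 1.1.2. They removed duplicates, called peaks with MACS2 2.0.10 on merged replicates and set the list with the irreproducible discovery rate. The deposited list gives, for each peak, positions, a fold enrichment ratio, −log10 p and −log10 q. The deposited score, derived from the p-value, was not used. Depth per library is not given in the sources used here.

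The whole pileup and the background were solved from fold = (pileup + 1) / (background + 1) and the Poisson p-value, and matched within 0.001 in 99.9% of peaks. Peaks (all 12885 inside their NCBIM37 chromosomes) were assigned to the nearest of 70064 protein-coding TSSs of GENCODE vM1. Of the genes in both lists, 47 of 47 were matched, Apela and Ackr3 by older symbols. Motif shares carry Wilson intervals. No test was run, since peaks of a pooled list are not replicates. All peaks of Aplnr and Apln are named, as are genes competing for them and genes of the lists, except 2 without a peak, which are counted but not reported here by name. The members and lists were chosen with earlier results of these data known. Python 3.11.15, numpy 2.4.6, scipy 1.17.1 and pysam 0.24.0 were used, and the steps were tested on simulated data. Alternatives were other assignments, thresholds, stitching distances, windows and motif spacing.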

Additional observations from a re-analysis of the deposited data

How the results depend on the processing

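Of 41 values recomputed under an alternative, 26 stayed close (a count, length or density within 1.5 times the reported one, a median within its interval) and 15 moved. Requiring −log10 q of at least 50 left 4 Aplnr peaks and 4 in the chain. The chain had 6 peaks at a stitching distance of 5 kb, and 6 when a fold of at least 10 was required. Its length was 12004 bp at 5 kb, and 19959 bp under either threshold. GATA sites were found in 2 members within 25 bp of the summit, in 8 within 100 bp and in 9 in the whole peak. E-boxes were found in 3 within 25 bp and in 9 in the whole peak. The composite motif was found in 0 within 25 bp, in 3 in the whole peak and in 2 with 6 to 10 bp between CTG and GATA. These follow from fewer peaks or a wider or narrower search. Apln had 0 peaks under each of its 6 alternatives, though the thresholds on fold and on q could only lower a count. The medians for the chain only and within 50 kb of a TSS rest on the same peaks as the reported medians. These values are among those that stayed close but could not have moved. The counts for genes within 10 kb or 50 kb in both lists, and the medians by nearest TSS only, were added after the data were seen.

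No paired analysis was possible because the pooled list holds no value for a numbered library, and for the same reason no replicate was left out. Counting error is relatively widest at the lowest pileup, 30 fragments (20.2 to 42.8) at peak 5, against 1660 (1581 to 1742) at peak 6.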
